A study of Mus musculus with 45 samples.

Results

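Macrophages sorted from cardiotoxin-injured skeletal muscle at day 1 of injury were compared between mice that carried the Foxp3.DTR transgene (DTR+) and mice that did not (DTR-), with the MHCII+ and MHCII- macrophage subsets in the same comparison. The arrays were chosen by their titles, which give day 1 and 24 h of diphtheria toxin (DT) for both genotypes, and they are 8 of the 45 arrays of the series. DTR+ and DTR- mice gave 4 arrays each, 2 from each subset, so that subset entered the comparison as a covariate. All 8 samples came from male C57Bl6 mice of 8 weeks that had received cardiotoxin, and the same gate was listed for all of them: living CD45+ CD11b+ F4-80+ cells negative for Ly6g and SiglecF. The labels do not say from what moment the 24 h are counted, how many animals stand behind an array or whether the 2 subsets came from the same animals, so the p-values measure only the spread between these samples. The values are log2 of the deposited intensities of Affymetrix Mouse Gene 1.0 ST arrays. Of 19752 genes with a probe set of their own, 9825 had a mean over the 8 arrays at or above the median of all values, log2 7.49, and were tested.

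Foxp3 is the transcription factor that defines regulatory T cells. In Foxp3.DTR mice the Foxp3 promoter drives a receptor for diphtheria toxin, so that the toxin kills regulatory T cells and leaves cells without the receptor alive; in DTR- mice the toxin meets no such receptor. Regulatory T cells accumulate in injured muscle and restrain inflammation there, while macrophages first clear debris and later help regeneration. Early after injury most muscle macrophages derive from blood monocytes. Macrophages answer type I interferon and interferon gamma through separate cell-surface receptors, and answer tissue damage through NF-kappaB, which turns on cytokines and chemokines.

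The arrays carried the sorted identity. Adgre1, which encodes F4/80, lay between 12.57 and 12.75 on the log2 scale in all 8 arrays, and the growth factor receptor gene Csf1r between 12.56 and 12.65. The class II gene H2-Ab1 lay at 13.68 to 13.77 in the MHCII+ arrays and at 7.81 to 8.29 in the MHCII- arrays, as the titles say; the list of sort markers in the labels names the MHCII- phenotype for all 8 samples. Foxp3 (6.88 to 7.30) and Ifng (6.88 to 7.05) lay below the filter in every array. The arrays hold no probe for the transgene's receptor, so neither the genotype nor the loss of regulatory T cells could be checked on them. The median intensity of an array was 174.7 to 184.7 units. Precision is set by there being 2 arrays per genotype and subset.

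At day 1 the macrophages of DTR+ and DTR- mice differed little. The neutrophil-attracting chemokine Cxcl1 was lower in DTR+ mice, as were the lectin gene Mgl2 and the carbonyl reductase gene Cbr2. Higher were the NADPH oxidase gene Cybb and the germ-cell gene Dppa3, the latter near the floor and tested only because of its DTR+ level. These were the genes that passed an adjusted p of 0.05: 5 of 9825, or 0.0509%, with 2 higher (0.0204%) and 3 lower (0.0305%). Single arrays weighed on that count: it was 109 without the first MHCII+ sample of DTR+ mice, 20 without the first MHCII+ sample and 0 without the first MHCII- sample of DTR- mice, and 1 or 2 without any other array. Without adjustment, 1174 genes (11.9%) had a p under 0.05, of which 859 (8.74%) were higher and 315 (3.21%) lower in DTR+ mice. None of the 9825 genes differed by 2-fold or more between the genotypes, and 10 reached 0.5 on the log2 scale. The 95% confidence interval of the difference lay within 2-fold in either direction for 9818 genes (99.9%) and within 1.5-fold for 9771 (99.5%). In the same 8 arrays and the same fit, 1951 genes (19.9%) passed between the MHCII+ and MHCII- subsets.

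**Figure D1:**
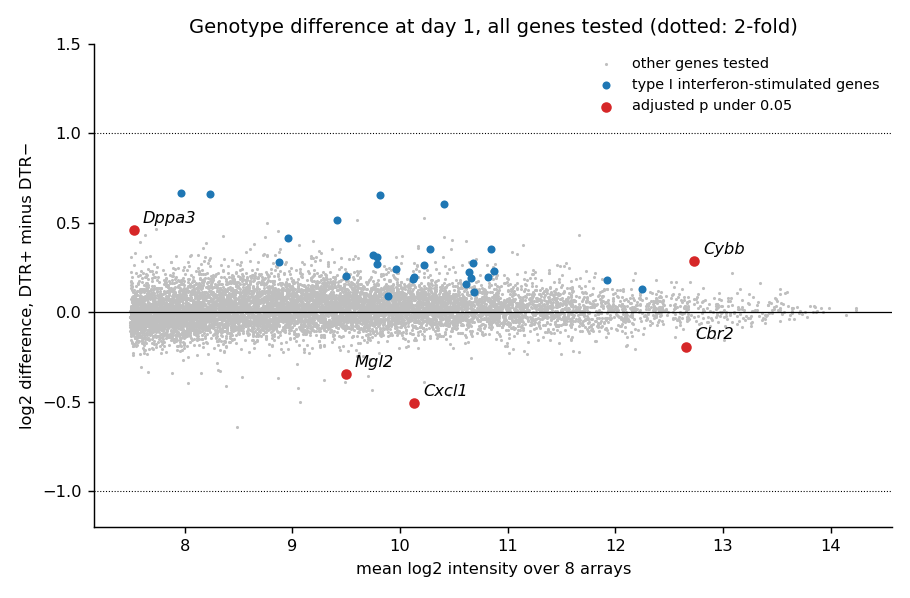
Mean log2 intensity over the 8 day 1 arrays (x axis) against the log2 difference between DTR+ and DTR- mice (y axis) for the 9825 genes tested, with the 5 genes that passed in red and the 27 type I interferon-stimulated genes in blue. No point reaches the dotted lines at 2-fold, and all 27 blue points lie above 0.

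Samples of the same genotype and replicate number deviated together from their group means in the 2 subsets (correlation across genes 0.335 in DTR+ and 0.312 in DTR- mice); the labels do not state whether they come from the same animal. Therefore the genotype calls at day 1 are also given with genotype and number as a random block (estimated correlation 0.169). With that block 1 gene, Cxcl1, passed (0.0102% of those tested), and the other 4 had an adjusted p of 0.10.

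Cxcl1, whose product draws neutrophils through the receptor CXCR2, was the gene with the smallest p. In MHCII+ macrophages it lay at 10.00 and 10.08 in the DTR+ arrays and at 10.67 and 10.50 in the DTR- arrays. In MHCII- macrophages it lay at 9.76 and 9.66 in the DTR+ arrays and at 10.24 and 10.13 in the DTR- arrays. All 4 DTR+ arrays were below all 4 DTR- arrays. The difference was -0.51 ± 0.05 (log2, SE; 95% interval -0.63 to -0.39), a 1.42-fold lower level in DTR+ mice, with an adjusted p of 0.0058, or 0.0096 with the random block. It was -0.54 in MHCII+ and -0.47 in MHCII- macrophages, and these differed by less than their error (-0.07 ± 0.11). With the subsets averaged to 2 samples against 2, Cxcl1 did not pass, and 0 genes did. The call was lost without the first MHCII- sample of the DTR- mice (-0.49, adjusted p 0.066), without both second DTR+ samples (-0.50, adjusted p 0.057) and in a fit over all 45 arrays of the series, where the same difference of -0.51 had an SE of 0.12 and an adjusted p of 0.86.

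The 250 bases before the transcription start of Cxcl1 are shown because this gene had the smallest p and is a textbook target of NF-kappaB (chr5:90890995-90891244, GRCm38.p6, plus strand, from RefSeq). Capitals mark matches to the letters GGGNNNTNCC, a loose form of the NF-kappaB site, searched on both strands; 3 matches were found, of which 2 overlap.
Cxcl1: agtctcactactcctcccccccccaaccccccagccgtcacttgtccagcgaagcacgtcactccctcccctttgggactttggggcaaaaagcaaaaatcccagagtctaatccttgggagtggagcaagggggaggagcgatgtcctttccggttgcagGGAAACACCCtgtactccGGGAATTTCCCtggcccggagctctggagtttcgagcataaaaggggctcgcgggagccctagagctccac
The same letters occur in 4890 of 32851 promoter windows of this length (14.9%) and in a window of 1685 of the 7928 tested genes with an entry (21.3%). A match therefore describes the sequence and shows no binding.

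The other chemokines that act on the same receptor were not called. Cxcl2, at a mean of 13.39, had a difference of -0.02 ± 0.04 and Cxcl3, at 9.72, one of -0.26 ± 0.19; Cxcl5 lay below the filter. These relatives were looked up after the value of Cxcl1 was known.

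Cybb encodes gp91phox, the catalytic subunit of the phagocyte NADPH oxidase that makes superoxide. In MHCII+ macrophages it lay at 12.81 and 12.85 in DTR+ and at 12.52 and 12.62 in DTR- arrays, and in MHCII- macrophages at 12.91 and 12.92 against 12.50 and 12.71. All 4 DTR+ arrays were above all 4 DTR- arrays. The difference was 0.28 ± 0.04, a 1.22-fold higher level, with an adjusted p of 0.047 that became 0.10 with the random block. The oxidase partners looked up after that gene was seen did not pass: Cyba had -0.05 ± 0.03, Ncf1 -0.0002 ± 0.06, Ncf4 -0.11 ± 0.05 and Rac2 -0.10 ± 0.05.

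Dppa3, a gene known from germ cells and the early embryo, lay at 7.78 and 7.89 in DTR+ against 7.53 and 7.45 in DTR- arrays of the MHCII+ subset, and at 7.61 and 7.74 against 7.14 and 7.06 in the MHCII- subset. The 4 DTR+ arrays lay above the 4 DTR- arrays. The difference was 0.46 ± 0.07 with an adjusted p of 0.047, but the mean of 7.52 is just above the filter and that of the DTR- arrays, 7.30, below it: the gene was tested only because of its level in DTR+ arrays, near the floor of these arrays.

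Mgl2 encodes the galactose-binding lectin CD301b, carried by alternatively activated macrophages and some dendritic cells. It was mainly a gene of the MHCII+ subset (3.26 higher on the log2 scale there than in the MHCII- subset). In MHCII+ macrophages it lay at 11.03 and 10.94 in DTR+ and at 11.25 and 11.27 in DTR- arrays, and in MHCII- macrophages at 7.62 and 7.70 against 8.09 and 8.06, with no overlap within either subset. The difference was -0.34 ± 0.05 with an adjusted p of 0.047. Its paralogue Clec10a had -0.09 ± 0.06. The 15 dendritic cell genes analysed here summed to 23860 and 23520 intensity units in DTR+ and to 24200 and 23520 in DTR- arrays of the MHCII+ subset. The median log2 level of the 9 that were tested was lower there in DTR+ (9.14 and 9.52) than in DTR- arrays (9.95 and 9.78). In the MHCII- subset the genotypes overlapped. A median level follows the genes in the middle of the list and not the list as a whole. The median of the 9 differences was -0.0146 in MHCII+ macrophages, with 4 above 0. In both subsets together it was 0.0123, with 5 above 0, and 0 of the 9 genes passed. Their part in the value of Mgl2 was not tested.

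Cbr2, a carbonyl reductase gene used as a marker of tissue-resident macrophages, lay at 12.42 and 12.42 in DTR+ and at 12.62 and 12.62 in DTR- arrays of the MHCII+ subset. In the MHCII- subset it lay at 12.74 and 12.66 against 12.89 and 12.88. The arrays did not overlap within either subset. The difference was -0.19 ± 0.03, a 1.14-fold lower level, with an adjusted p of 0.047.

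The calls of Dppa3, Cybb, Mgl2 and Cbr2 sat at the threshold: without 1 of the 8 arrays their largest adjusted p was 0.23 to 0.24, while the differences kept their sign. The split between higher and lower calls also moved with the settings. When each array was centred on its median, 2 genes passed higher (Dppa3 and Cybb) and 1 lower (Cxcl1). After quantile normalization of the 8 arrays again, 0 passed higher and 2 lower (Cxcl1 and Cbr2). With array quality weights 185 passed higher and 34 lower, and with the replicate number as a block 62 higher and 13 lower.

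**Figure D2:**
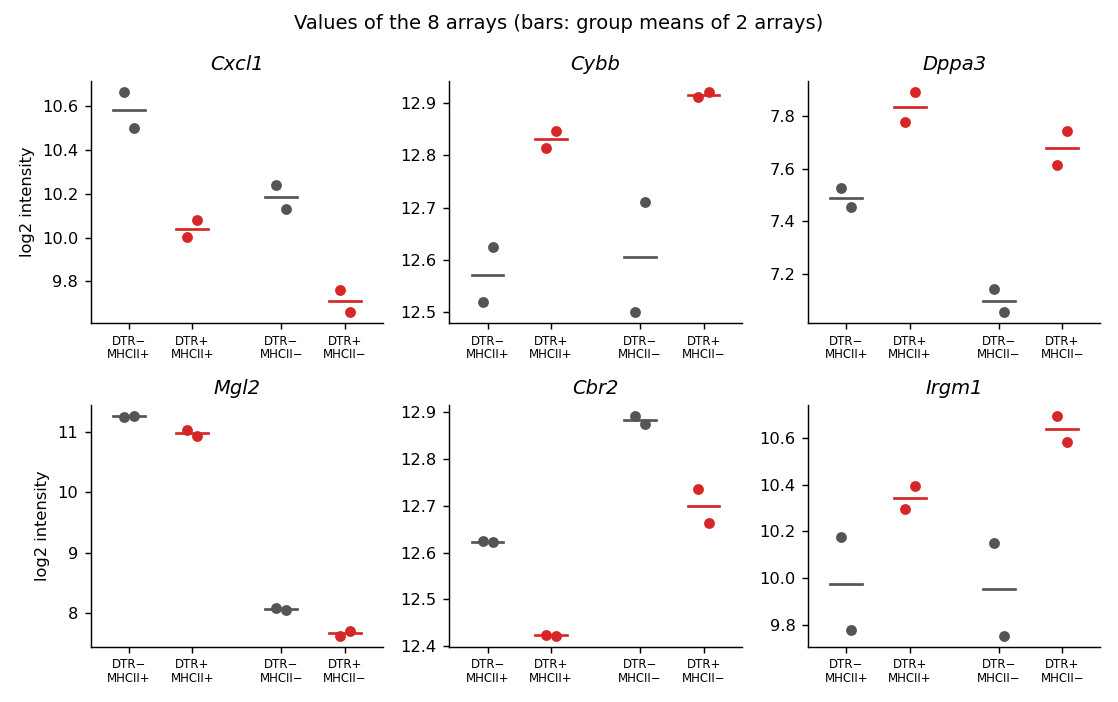
Log2 intensity (y axis, its range differs between panels) of the 5 genes that passed and of Irgm1, which did not pass, in the 8 arrays by genotype and subset (x axis); points are arrays and bars are means of 2 arrays. Within each subset no DTR+ point overlaps a DTR- point in any of the 6 panels.

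Beyond these, the genes with the smallest p whose DTR+ and DTR- values did not overlap within either subset are given as values. Such separation held for 542 genes (5.52%) in the higher and 387 (3.94%) in the lower direction. Among the higher ones Irgm1, an interferon-inducible GTPase of autophagy and defence against intracellular pathogens, lay at 10.29, 10.39, 10.69 and 10.58 in DTR+ and at 10.18, 9.78, 10.15 and 9.75 in DTR- arrays, with MHCII+ arrays first. Its difference of 0.53 ± 0.10 had an adjusted p of 0.18. Mx1, an antiviral GTPase, had 0.66 ± 0.13 (adjusted p 0.18), and Pnpt1, an interferon-inducible exoribonuclease of mitochondria, had 0.31 ± 0.06 (0.15). The others were the glycoprotein gene Cd24a (0.23 ± 0.04), the kinase gene Plk2 (0.25 ± 0.04), Ly6a2 (0.28 ± 0.06), the small GTPase gene Rhob (0.21 ± 0.04) and Plau, the urokinase gene (0.22 ± 0.04), with adjusted p of 0.097 to 0.18. In the lower direction they were Lsmem1 (-0.38 ± 0.06, adjusted p 0.058), the palmitoyltransferase gene Zdhhc23 (-0.28 ± 0.06), the leukotriene C4 synthase gene Ltc4s (-0.43 ± 0.09), the adhesion receptor gene Cd226 (-0.31 ± 0.06), the growth factor receptor gene Gfra2 (-0.34 ± 0.07), the vitamin B12 carrier gene Tcn2 (-0.16 ± 0.04) and Zfp467 (-0.33 ± 0.07), with adjusted p of 0.19 to 0.20 after the first.

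The group of genes that stood highest together was that of type I interferon-stimulated genes, many of which encode antiviral effectors. Of 30 on the list, 28 were analysed here and 27 were tested; all 27 differences were above 0, against 57.4% of all genes tested. Their median was 0.26 on the log2 scale, against 0.01 for all genes tested. No member passed after adjustment over all genes (adjusted p 0.18 to 0.66), while 22 of 27 had an unadjusted p under 0.05 in the higher direction, against the 8.74% of all genes. With the random block, which applies 1 correlation to all genes, the count was again 22, against 6.99%. With the subsets averaged to 2 samples against 2 it was 15, against 4.78%. The median was 0.22 in MHCII+ and 0.30 in MHCII- macrophages.

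The largest differences belonged to Ifit2 (0.67 ± 0.19), Mx1 (0.66 ± 0.13), Ifit3 (0.65 ± 0.18) and Rsad2 (0.61 ± 0.15), all antiviral effectors; Rsad2 encodes viperin. Ifit3 lay at 10.70 and 9.87 in the MHCII+ and 10.39 and 9.61 in the MHCII- arrays of DTR+ mice, and at 9.94 and 9.45, and 9.33 and 9.24, in those of DTR- mice. Thus the second DTR+ sample of the MHCII+ subset was below the first DTR- sample. Rsad2 lay at 10.98 and 10.40, and 10.93 and 10.53, in DTR+ arrays and at 10.43 and 9.81, and 10.31 and 9.86, in DTR- arrays, and overlapped in the same way. Mx1 lay at 8.68 and 8.31, and 8.73 and 8.56, against 8.24 and 7.72, and 8.07 and 7.60, without overlap within either subset. Rtp4, which encodes a receptor transporter protein, lay at 10.98 and 10.95, and 11.14 and 11.02, against 10.84 and 10.50, and 10.76 and 10.55 (0.35 ± 0.07), also without overlap. For 10 of the 27 genes the genotypes did not overlap within either subset in the higher direction, against 5.52% of all genes.

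The samples numbered 1 were the higher ones of their group in this list. Its median level was 10.54 and 10.22 in the MHCII+ and 10.40 and 10.04 in the MHCII- arrays of DTR+ mice, and 10.07 and 9.98, and 10.08 and 9.90, in those of DTR- mice. In the MHCII- subset the second DTR+ sample was below the first DTR- sample. Without both first DTR+ samples the median difference was 0.13, with 24 of 27 above 0 and 4 with an unadjusted p under 0.05, against 12.5% of all genes in that fit. Without both second DTR- samples it was 0.15, with 26 above 0 and 8 with an unadjusted p under 0.05, against 3.47% of all genes. Leaving out a single array gave medians from 0.19 to 0.33 and 14 to 24 such genes, the lowest without the first MHCII- sample of DTR+ mice. In the fits without 1 array, 5.19% to 15.1% of all genes were higher and 2.02% to 3.69% lower at an unadjusted p under 0.05.

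**Figure D3:**
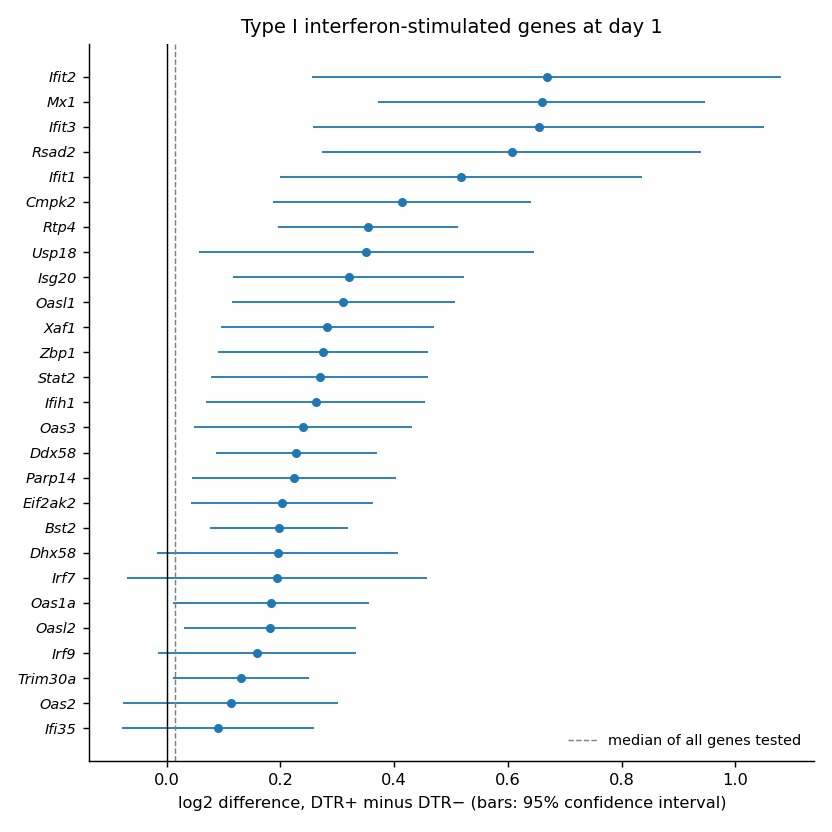
Log2 difference between DTR+ and DTR- mice (x axis) with its 95% confidence interval for the 27 type I interferon-stimulated genes tested (y axis), from the fit of the 8 arrays. Every point lies right of 0, from Ifi35 at 0.09 to Ifit2 at 0.67, and the dashed line marks the median of all genes tested, 0.01.

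Promoters are shown for 3 genes of the higher group, since interferon-stimulated genes share a known element (GRCm38.p6, from RefSeq, the 250 bases before the start in the direction of transcription). They are Ifit1 of the list (chr19:34640639-34640888, plus strand), Irgm1 (chr11:48871421-48871670, minus strand) and Cybb (chrX:9469325-9469574, minus strand). Irgm1 and Cybb are not on the type I list. Capitals mark matches on either strand to GAAANNGAAA, the core of the interferon-stimulated response element.
Ifit1: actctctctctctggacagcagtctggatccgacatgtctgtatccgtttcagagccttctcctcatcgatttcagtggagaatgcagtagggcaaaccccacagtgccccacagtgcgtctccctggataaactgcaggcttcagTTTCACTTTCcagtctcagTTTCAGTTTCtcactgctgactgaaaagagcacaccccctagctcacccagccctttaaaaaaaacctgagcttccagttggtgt
Irgm1: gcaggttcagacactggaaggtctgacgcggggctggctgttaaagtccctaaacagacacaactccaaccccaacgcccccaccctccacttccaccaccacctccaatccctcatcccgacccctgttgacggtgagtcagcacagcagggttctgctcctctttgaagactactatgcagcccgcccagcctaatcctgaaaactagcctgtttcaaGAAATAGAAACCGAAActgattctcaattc
Cybb: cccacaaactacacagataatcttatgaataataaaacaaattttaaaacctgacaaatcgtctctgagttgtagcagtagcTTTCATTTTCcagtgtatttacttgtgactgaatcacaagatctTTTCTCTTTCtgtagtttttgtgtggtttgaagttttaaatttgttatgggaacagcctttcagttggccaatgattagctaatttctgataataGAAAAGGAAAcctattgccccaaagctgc
In Ifit1 there were 2 matches, in Irgm1 2 that overlap and in Cybb 3. The 3 genes were picked singly and do not stand for the higher group, whose other promoters are not shown. These letters occur in 978 of 32851 promoter windows (2.98%) and in a window of 255 of the 7928 tested genes with an entry (3.22%). Of the 27 interferon-stimulated genes tested, 20 had an entry and 8 of these (40%) held a match. The NF-kappaB letters given above occurred in 9 of the same 20 (45%), against 21.3% of tested genes. A match describes the sequence and shows no binding, and a part of interferon in the values of Irgm1 and Cybb was not tested.

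The genes of interferon gamma did not stand out in the same way. Of 37 on that list 28 were analysed here and 17 tested; 13 differences were above 0 (57.4% of all genes), the median was 0.09, and 0 passed, with 3 higher (8.74% of all genes) and 1 lower (3.21%) at an unadjusted p under 0.05. They were Irgm1, the T-cell chemokine Cxcl10 (0.43 ± 0.15) and the transcription factor gene Irf8 (0.15 ± 0.06) in the higher direction and the cytokine-signalling inhibitor gene Socs3 (-0.13 ± 0.06) in the lower. Without a single array the median of this list ran from 0.0068 (without the first MHCII- sample of DTR+ mice) to 0.16. The count of 3 fell to 1 without the second MHCII+ sample of DTR- mice, where 5.59% of all genes were higher. It rose to 5 without the first MHCII+ sample of DTR- mice, where 15% of all genes were higher. Cxcl9, Gbp4 and Iigp1, which interferon gamma induces strongly, lay below the filter at day 1, and Batf2 had a difference of 0.02 ± 0.07. Of 13 genes of the interferon gamma receptor pathway 0 passed (median 0.04). Of 14 genes of class I presentation 12 were above 0 with a median of 0.04, and B2m (0.07 ± 0.03) was the 1 with an unadjusted p under 0.05. The class II list had 5 of 12 above 0 and a median of -0.03; H2-Ab1 differed by 0.10 ± 0.08 and Cd74 by 0.02 ± 0.06.

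Among 20 chemokines tested, Cxcl1 passed and 10 lay above 0. At an unadjusted p under 0.05, 5 were higher (8.74% of all genes) and 2 lower (3.21%). Without 1 array the count of 5 ran from 3 to 7, in fits where 5.19% to 15.1% of all genes were higher. The monocyte and macrophage chemokine genes Ccl2 (0.17 ± 0.04), Ccl3 (0.10 ± 0.02) and Ccl7 (0.11 ± 0.03) did not overlap between genotypes within either subset and had adjusted p of 0.22 to 0.26. Of the 20 chemokines 3 separated higher in this way (5.52% of all genes) and 2 lower (3.94%). The median of the list was 0.0002. Ccl2 lay at 13.28, 13.40, 13.54 and 13.50 in DTR+ and at 13.26, 13.14, 13.40 and 13.26 in DTR- arrays, MHCII+ first. Of 27 inflammatory cytokines and NF-kappaB targets, 6 lay above 0 and 21 below (42.6% of all genes), with a median of -0.04; 0 passed, and 1 was higher (8.74% of all genes) and 4 lower (3.21%) at an unadjusted p under 0.05. Those 4 were Nfkbie, an inhibitor of NF-kappaB (-0.16 ± 0.04), the adaptor gene Traf1 (-0.22 ± 0.07), Il1a (-0.43 ± 0.15) and Tnfaip3, the feedback inhibitor A20 (-0.13 ± 0.05). The cytokine genes Il1b (-0.01, 95% interval -0.14 to 0.13) and Tnf (-0.03, -0.15 to 0.10) and the inflammasome sensor gene Nlrp3 (-0.05, -0.16 to 0.06) had intervals that held 0. Il6 varied more between arrays, at -0.08 with an interval of -0.57 to 0.40. The count of 4 ran from 1 without the first to 8 without the second MHCII- sample of the DTR- mice.

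Genes of resident macrophages lay mostly below 0. Of 13 resident macrophage genes tested, 11 were below 0 (42.6% of all genes) with a median of -0.06. In MHCII+ macrophages 2 were above 0 (47.5% of all genes) and in MHCII- macrophages 5 (62.9%). At an unadjusted p under 0.05, 3 were lower (3.21% of all genes) and 0 higher (8.74%). The 3 were Cbr2, which passed, Ednrb, an endothelin receptor gene (-0.24 ± 0.06), and Lyve1, a hyaluronan receptor gene (-0.39 ± 0.12). Igf1 of the same list went the other way, at 0.20. Lyve1 lay at 9.67, 9.93, 8.96 and 8.63 in DTR+ and at 10.04, 10.35, 8.88 and 9.47 in DTR- arrays, MHCII+ first, and overlapped in the MHCII- subset. Of 18 monocyte genes 13 were above 0 (57.4% of all genes; 10 to 15 without 1 array) with a median of 0.03 (0.0012 to 0.074); 0 passed and 5 were higher without adjustment (8.74% of all genes), led by the integrin gene Itgal (0.24 ± 0.07) and Plac8 (0.28 ± 0.10). That count was 2 without the first MHCII- sample of DTR+ mice or the second MHCII+ sample of DTR- mice. In those fits 5.81% and 5.59% of all genes were higher. Of 20 genes of efferocytosis and complement 0 passed and 12 were below 0 (42.6% of all genes). At an unadjusted p under 0.05, 1 was higher (8.74% of all genes) and 5 were lower (3.21%), or 4 lower with the random block. The lower ones in the main fit included C1qa (-0.22 ± 0.06) and C1qc (-0.19 ± 0.06) of the first complement component and the cholesterol transporter gene Abca1 (-0.16 ± 0.04). Of 15 macrophage identity genes 0 passed and the median was -0.0011.

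The lists of alternative activation and repair were near 0. Of 23 genes of alternative activation 0 passed and 10 lay above 0; the eosinophil chemokine Ccl24 had -0.46 ± 0.14 and the nuclear receptor gene Pparg 0.19 ± 0.06, both with an adjusted p of 0.26. Ccl24 lay at 10.02, 9.72, 10.57 and 10.57 in DTR+ and at 10.73, 10.10, 11.25 and 10.67 in DTR- arrays, MHCII+ first, without overlap within either subset. Arg1 had -0.22 ± 0.13, Mrc1 -0.03 ± 0.03, Il10 -0.02 ± 0.08 and Chil3 0.03 ± 0.08. Of 19 growth factors and repair mediators 13 lay above 0 with a median of 0.04 and 0 passed; Igf1, which acts on muscle precursors, had 0.20 ± 0.09. Among 11 matrix metalloproteases and inhibitors 0 passed, with Mmp19 at -0.19 ± 0.04 and the neutrophil collagenase gene Mmp8 at 0.31 ± 0.11. Among 15 eicosanoid enzymes 0 passed, with Ltc4s lowest and the prostaglandin D synthase gene Hpgds highest (0.29 ± 0.12).

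Of 22 glycolysis and hypoxia genes 14 were below 0 (42.6% of all genes) with a median of -0.06. In 4 of the 22 the DTR+ values were lower without overlap within either subset, against 3.94% of all genes. None passed, and 6 were lower without adjustment, against the 3.21% of all genes. They included the lactate exporter gene Slc16a3 (-0.24 ± 0.06), Ndrg1 (-0.19 ± 0.05), the phosphofructokinase gene Pfkl (-0.23 ± 0.07) and the aldolase gene Aldoa (-0.09 ± 0.03), none of which overlapped between genotypes within either subset. That count ran from 3 without the first MHCII- sample of the DTR- mice to 8 without either of their second samples. Of 29 genes of oxidative phosphorylation 19 were above 0 (57.4% of all genes) with a median of 0.04, which was 0.01 after quantile normalization and ran from 0.012 without the second to 0.063 without the first MHCII+ sample of DTR+ mice. None passed, and 7 were higher without adjustment (8.74% of all genes), a count that ran from 2 without the second MHCII- sample of DTR- mice to 10 without the first MHCII+ sample of DTR+ mice, where 15.1% of all genes were higher. In the lists of 29 immediate-early and stress, 23 lysosomal, 20 cell cycle and 11 iron and heme genes 0 passed, with medians of -0.01, 0.01, 0.01 and 0.00.

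Markers of other cells were mostly near the floor of the arrays. Below the filter lay 13 of 14 T cell genes, 10 of 12 regulatory T cell genes, 15 of 15 NK cell genes, 8 of 10 B cell genes, 11 of 19 neutrophil genes and 6 of 7 eosinophil genes analysed here, and 0 genes of the 12 lists of other cells passed. The summed intensity of a list was compared within each subset. In 3 of the 12 lists it was lower in the DTR+ arrays, without overlap, in both subsets. Single genes tested separated in this way in 3.94% of cases lower and in 5.52% higher. No such share was computed for sums, and some of the gaps were narrow. The T cell sum was 1909 and 2055 in DTR+ against 2110 and 2173 in DTR- arrays of the MHCII+ subset, and 1764 and 1787 against 1806 and 1794 in the MHCII- subset. The skeletal muscle sum was 3142 and 3181 against 3214 and 3195, and 3091 and 3143 against 3435 and 3148. The erythroid sum, over 2 genes, was 285.3 and 284.6 against 310.4 and 303.9, and 296.3 and 307 against 316 and 312. In the MHCII- subset alone the B cell and mast cell sums were lower and the NK cell and eosinophil sums higher in DTR+ arrays without overlap. The sums of the regulatory T cell, neutrophil, dendritic cell, fibroblast and endothelial lists overlapped between genotypes in each subset. The regulatory T cell sum does not measure those cells. Its list holds Capg, at a mean of 12.43 on the log2 scale, while 10 of its 12 genes lay below the filter. The part of the cells of these 12 lists in the results was not tested. In sorted bulk samples a different mix of cells and a different level per cell cannot be told apart.

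The 2 subsets were also tested apart. In MHCII+ macrophages 0 of 9825 genes passed between genotypes (384, or 3.91%, with an unadjusted p under 0.05), in MHCII- macrophages 0 passed (1020, or 10.4%), and for the difference of the genotype effect between subsets 0 passed (251, or 2.55%; all limma). No genotype effect was shown to differ between the subsets. The type I interferon list had 27 of 27 differences above 0 in each subset, against 47.5% of all genes tested in MHCII+ and 62.9% in MHCII- macrophages.

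Whether the effect at day 1 differed from that at day 7 was tested over all 45 arrays, in which the sets have different controls. The day 7 sets also differ from day 1 in the gate (24 h) or in age (8 h, 12 weeks), which cannot be told apart from the day. Against the day 7 set labelled 24 h, 0 of 11074 genes passed (191, or 1.72%, without adjustment). The transcription factor gene Batf2 came nearest: its day 7 effect was 0.64 ± 0.08 and its day 1 effect 0.02 ± 0.09, a difference of -0.63 ± 0.12 with an adjusted p of 0.10. Iigp1 had 1.41 ± 0.21 at day 7; at day 1 it lay at 5.71 to 6.45, below the filter, where its effect of 0.19 ± 0.24 is measured at the floor and allows no contrast between days. For the interferon gamma list the median effect was 0.60 at day 7, 24 h, with 10 of 27 passed (0.154% of all genes), and 0.07 at day 1 in the same fit, where only 17 genes of the list lay above the day 1 filter; for the type I list it was 0.31 with 28 of 28 above 0, and 0.27 at day 1. In the day 7 set labelled 8 h the medians of these lists were 0.08 and -0.13.

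Against the 8 h set, 4 genes (0.0361%) passed (463, or 4.18%, without adjustment), all with a lower effect at day 1: Il1a, Cxcl1, Il10 and Tnfsf18, which encodes the ligand of the receptor GITR. Cxcl1 lay at 9.66 to 10.08 (median 9.88) in the 4 DTR+ and at 10.13 to 10.67 (median 10.37) in the 4 DTR- arrays of day 1, but at 9.71 to 10.41 (median 10.18) in the 6 DTR+ and at 9.31 to 9.88 (median 9.63) in the 7 DTR- arrays of the 8 h set. Its effects of -0.51 ± 0.12 and 0.55 ± 0.10 had opposite signs and differed by -1.06 ± 0.16 (adjusted p 0.00068). In the day 7 set labelled 24 h its effect was -0.25 ± 0.10 (adjusted p 0.91), in the direction of day 1, and the difference between these 2 effects was -0.26 ± 0.16 (adjusted p 1). Il1a lay at 9.27 to 9.80 in DTR+ and 9.62 to 10.30 in DTR- arrays at day 1, and at 9.99 to 11.21 and 8.66 to 10.04 in the 8 h set, a difference of effects of -1.98 ± 0.28 (adjusted p 0.00068). Il10, the anti-inflammatory cytokine, had -0.02 ± 0.20 at day 1 and 1.29 ± 0.16 in the 8 h set (-1.31 ± 0.25, adjusted p 0.029), and Tnfsf18 -0.12 ± 0.16 and 0.98 ± 0.13 (-1.10 ± 0.21, adjusted p 0.029). Tnfsf18 lay at 6.08 to 6.68 in all 8 day 1 arrays, below the filter, so its day 1 effect is measured at the floor of the arrays. Without 1 of the day 1 arrays 2 to 4 genes passed; Il1a and Cxcl1 passed each time, while Il10 lost its call in 7 of the 8 fits and Tnfsf18 in 6.

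**Figure D4:**
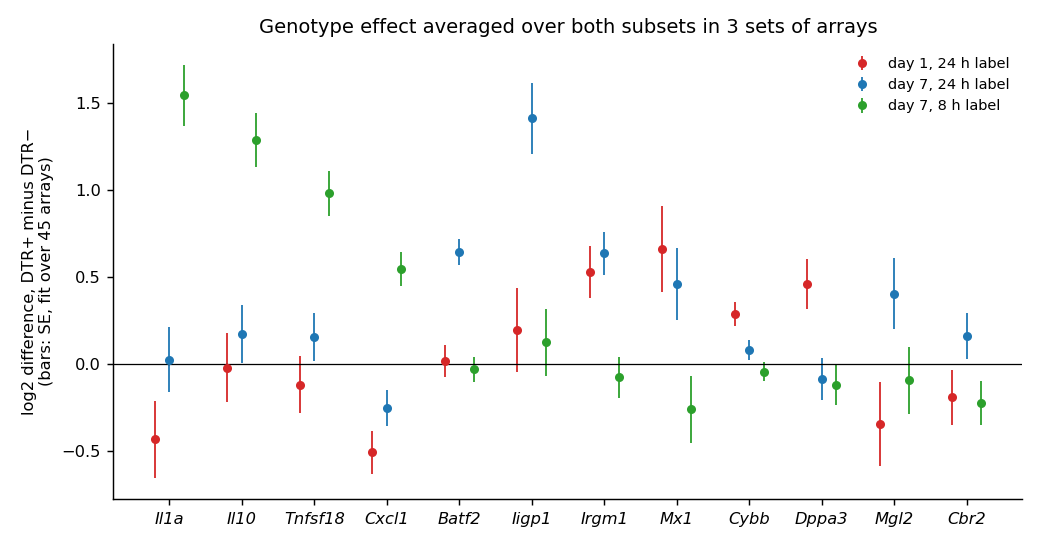
Log2 difference between DTR+ and DTR- mice averaged over both subsets (y axis; bars are SE from the fit over 45 arrays) at day 1 and in the day 7 sets labelled 24 h and 8 h, for 12 genes (x axis). Il1a, Il10 and Tnfsf18 are high in the 8 h set alone among the 3 sets, and Cxcl1 is below 0 at day 1 and in the day 7 24 h set and above 0 in the 8 h set.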

How the data were processed

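Sorted muscle macrophages were profiled in 45 samples, each on 1 Affymetrix Mouse Gene 1.0 ST array. The deposited table holds 1 intensity on a linear scale per probe set and array, which the authors made with RMA in Affymetrix Power Tools, per the submitters' processing notes; versions were not given in the sources used here. RMA equalizes the intensity distributions between arrays, so a shift shared by all genes would not be seen. Values were converted to log2. Of 24922 probe sets, 21425 had 1 gene symbol in the platform annotation, 1399 had several and 2098 none; per gene the probe set with the highest mean over the 8 day 1 arrays was kept. Groups were taken from the titles. Of 45 value columns, 0 were left unmapped.

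The main fit was limma 3.58.1 (R 4.3.3; lmFit, eBayes with an intensity trend) on the 8 day 1 arrays with subset and genotype as terms; only these arrays entered because their residual SD (median gene 0.08) was below that of the day 7 sets (0.20 and 0.16). P-values were adjusted by Benjamini-Hochberg over all genes tested, and an adjusted p under 0.05 passed; fits, intervals and calls are from limma throughout. Effects within a subset came from 1 mean per group, and differences between days from 18 group means over 45 arrays with 11074 genes above log2 7.57. The fits were tested on simulated data with independent noise in each array. Such data cannot show how the fits deal with the correlation between same-numbered samples. The genes, the lists (33 lists, 639 genes, 407 tested) and the comparisons were chosen with earlier results of these data known; no list was tested, and each is given by counts and its median. Named were the genes that passed, filled to 10 a direction in order of p among genes without overlap within either subset, a fixed set of interferon, cytokine and activation genes, up to 4 members of each list with the smallest p, and genes passing in a difference between days; genes with provisional names, receptor segments and small RNA genes were left unnamed. Alternatives were other filters, scalings, weights, blocks and leaving out each array. Promoter sequences are RefSeq's (GRCm38.p6); 13 of the 20 genes named by the first part of that rule had an entry. Sequences were searched in Python 3.11.15 with pandas 2.3.3, and plots made with matplotlib 3.10.9.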

Additional observations from a re-analysis of the deposited data

Results flagged for a closer look

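The genotype effect (DTR+ minus DTR-, averaged over both subsets) differed between day 1 and the day 7 set labelled 8 h for 4 genes, by a test of that difference in limma over 45 arrays. The difference, day 1 minus day 7, was -1.98 for Il1a, -1.06 for Cxcl1, -1.31 for Il10 and -1.10 for Tnfsf18 on the log2 scale. Tnfsf18 lay below the filter in all 8 day 1 arrays (6.08 to 6.68), so its difference is taken against a level at the floor. Mouse age, 8 weeks at day 1 and 12 weeks in the 8 h set, the time of toxin in the labels and the day cannot be told apart in this difference. Within a day 1 group of 2 arrays, the values alone do not tell which of the 2 stands apart. Array quality weights over the 8 arrays ran from 0.445 for the first to 2.23 for the second MHCII+ sample of DTR+ mice.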

How the results depend on the processing

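The count of 5 genes between DTR+ and DTR- mice at day 1 depended on every setting tried: 0 over all 45 arrays and with the subsets averaged to 2 against 2, 1 with 1 mean per group, without the intensity trend, without a filter, with a filter on the highest group mean, with a filter 1 log2 unit higher, over all single-symbol probe sets and with the random block, 2 after quantile normalization and over all probe sets, 3 with centred arrays and 219 with array quality weights. It ran from 0 to 109 without 1 array and was 54, 109, 11 and 1 without both arrays of DTR- number 1, DTR+ number 1, DTR- number 2 and DTR+ number 2, a choice made after seeing the data. In MHCII- macrophages 0 to 1 genes passed without 1 array. The difference between subsets called 1951 genes, and 599 over all 45 arrays. The difference from the day 7 8 h set called 2 to 4 genes without 1 day 1 array. Samples with the same number in the 2 genotypes did not pair (correlations of deviations 0.01 and 0.03), though the third principal component (5.85% of the variance) separated the numbers. With the number as a replicate block, 75 genes passed in both subsets together, 4 in MHCII+ and 11 in MHCII- macrophages, 1 for the difference from the day 7 24 h set and 10 for that from the 8 h set, and 16 of the 27 type I interferon genes passed. Of the 10 genes for the 8 h set, only 2 were among the 4 of the main fit. No named gene that passed changed sign under any setting. Array weights over 45 arrays could not be estimated and were not run for the differences between days. With 2 arrays per group, differences of single genes under about the intervals printed are not detectable.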
